A study of Arabidopsis thaliana with 16 samples.

Results

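A group of 195 Arabidopsis genes had high transcript levels in untreated *fer* seedlings, while arabidopside A left their mean level in WT seedlings nearly where it was. They were drawn from the 32833 genes of the count table, of which 25983 had a count in any library. They were chosen by their values in fer_control, WT_control and WT_Aradopside libraries, in CPM, a gene's count scaled to its library's total. A gene was kept when its fer_control mean was at least 10 CPM and its fer_control mean was at least 2 log2 units above WT_control, with 1 CPM added to each. Its lowest fer_control library also had to lie above its highest WT_control library, and its log2 ratio of WT_Aradopside to WT_control had to lie within 0.3 of 0 in either direction. Without the last condition 552 genes qualified, of which 291 lay above and 66 below that bound. The fer_Aradopside libraries had no part in the choice.

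The study compared *fer*, the fer-4 T-DNA insertion line of the receptor kinase gene FERONIA (FER), with its Col-0 parent (WT) as whole 10-day-old seedlings, 4 biological replicates in each of 4 groups. The groups are fer_Aradopside, fer_control, WT_Aradopside and WT_control, where Aradopside, as the labels spell it, is arabidopside A at 12.5 µM for 2 h and the controls were untreated. Seedlings of all 4 groups grew on 1/2MS plates and were moved to 1/2MS liquid medium for 2 h before the treatment. QuantSeq, a tag-based RNA-seq method that reads transcripts from their 3′ ends, gave the counts, so that CPM compares a gene between libraries without a correction for gene length. One allele stands for the loss of FER throughout, and in whole seedlings a higher transcript level per cell and a larger share of expressing cells cannot be told apart.

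FER spans the plasma membrane, binds cell wall pectin and secreted RALF peptides, and is known for its roles in growth, cell wall sensing and immunity. Arabidopsides are chloroplast galactolipids that carry the jasmonate precursor OPDA, and wounding makes Arabidopsis leaves accumulate them. Salicylic acid, jasmonate, the phytoalexin camalexin, pattern-recognition receptors and detoxifying glutathione transferases are among the best studied arms of plant defence.

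Library totals ran from 4994304 to 26358335 counts in fer_Aradopside, where replicate 2 stood apart, and from 2843653 to 5985875 counts in the other 3 groups. FER itself had 0, 11, 7 and 14 counts in fer_Aradopside libraries and 7, 3, 3 and 10 counts in fer_control libraries, against 356 to 793 counts in the 8 WT libraries, so that every *fer* library lay below every WT library. Together the 195 genes held 1.02, 1.59, 2.71 and 4.57% of all counts in fer_Aradopside libraries 1 to 4 and 1.29, 1.45, 4.48 and 3.24% in fer_control libraries 1 to 4, against 0.266 to 0.352% in WT_Aradopside and 0.285 to 0.326% in WT_control. Within *fer*, replicates 3 and 4 of both groups thus held more than replicates 1 and 2. Chlorophyll-binding, Rubisco and other green tissue transcripts, an 11-gene list with no member among the 195, ran the other way: they summed to 15585, 13544, 9532 and 8020 CPM in fer_Aradopside libraries 1 to 4 and 17728, 13701, 7851 and 11015 CPM in fer_control libraries 1 to 4, against 21135 to 24488 CPM in WT_Aradopside and 23323 to 27586 CPM in WT_control. None of the 11 green tissue genes was at 0 in all fer_Aradopside libraries. The part of tissue makeup in the results below was not tested.

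**Figure D1:**
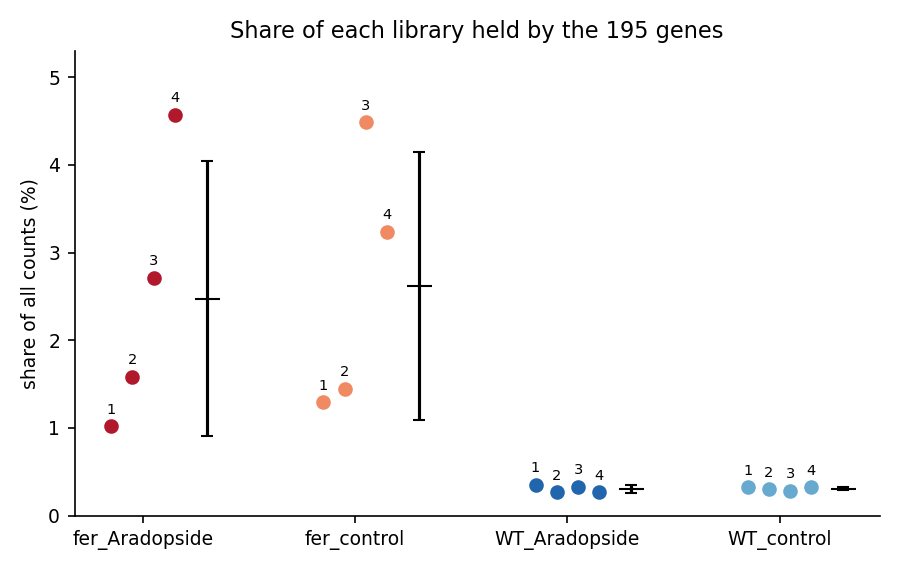
Share of all counts (%) held by the 195 genes in each of the 16 libraries (points, numbered by replicate), with the mean and SD of the 4 libraries of each group beside them. The fer_Aradopside libraries spread from 1.02 to 4.57% and the fer_control libraries from 1.29 to 4.48%, and the highest WT library lies at 0.352%.

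In the comparison of fer_Aradopside against WT_Aradopside, the choice of genes left only the fer_Aradopside side free. It asks whether the 195 genes were also high in *fer* in the presence of arabidopside A. In edgeR's quasi-likelihood test on these 8 libraries, 183 of the 185 genes that passed the filter on low counts were higher in fer_Aradopside at an adjusted p under 0.05, and none was lower, beside 17.3% of all 17234 genes tested that were higher and 13.4% that were lower, 30.7% in either direction. Of the 185, 82 did not reach the filter's minimum in all 4 WT_Aradopside libraries. They passed it with the help of their *fer* libraries, which favours a call, so they are not read as a result. The remaining 103 were counted well enough in all 4 WT_Aradopside libraries, and 101 of them were higher, beside 15.8% of the 15473 genes that met the same minimum. Among these 103 genes the log2 fold change had a median of 2.61 and ran from 1.56 to 5.17, where the median of all genes tested was 0.00. Without overlap of the 4 libraries against 4, 184 of all 195 genes were higher in fer_Aradopside, beside 16.2% of the 19219 genes of at least 1 CPM in either group. That count is a description only, since it takes in the 82 genes and those that did not pass the filter. In the contrast that chose them, fer_control against WT_control, the fit called 15.7% of 17001 genes higher and 27.2% in either direction, and the 195 had log2 ratios of 2.00 to 5.53 with a median of 2.91, which is the rule and not a finding. WT_Aradopside entered the choice through its mean, which the rule held near WT_control and thus far below fer_control. The shares of all genes, not chosen in that way, are background and no measure of what chance gives for the 195. Without fer_Aradopside replicate 4, where most of the 195 were highest, 172 genes were called higher, and without the deepest library, fer_Aradopside replicate 2, 185 were. Both counts take in genes that passed the filter with the help of their *fer* libraries, so they are a description only.

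The highest values belonged to a few genes. GSTF2, a phi-class glutathione transferase and the gene with the highest CPM of the 195, had 1279.9, 2337, 4529 and 7601 CPM in fer_Aradopside libraries 1 to 4 and 1695, 2222, 7279.7 and 5186 CPM in fer_control libraries 1 to 4, against 450.3, 348, 402 and 372 CPM in WT_Aradopside and 441, 359, 353 and 412 CPM in WT_control. Every fer_Aradopside library lay above every WT_Aradopside library (log2 fold change 3.42 ± 0.56 (SE), adjusted p = 0.0038), yet the highest fer_Aradopside library was 5.94 times the lowest. AT2G25510, an uncharacterized protein, was far more even, with 706, 980.3, 1056 and 1500.2 CPM in fer_Aradopside libraries 1 to 4 and 839, 1241, 1428 and 1146 CPM in fer_control libraries 1 to 4, against 44.4, 31.6, 28.0 and 18.7 CPM in WT_Aradopside and 39.9, 44.8, 30.9 and 25.9 CPM in WT_control (log2 fold change 5.17 ± 0.35 (SE), adjusted p = 4.7e-05). It had the largest log2 fold change among the 103 well-counted genes. Another uncharacterized gene, AT5G42530, had 976, 1485, 1876 and 3808 CPM in fer_Aradopside and 1264, 1853, 3459 and 2496 CPM in fer_control, against 121 to 194 CPM over the 8 WT libraries (log2 fold change 3.71 ± 0.47 (SE), adjusted p = 0.0012). AT1G53625, also uncharacterized, had 34.8, 63.7, 311 and 811 CPM in fer_Aradopside and 44.9, 34.8, 806 and 550.1 CPM in fer_control, against 6.69 to 12.7 CPM over the 8 WT libraries, so that its 2 highest *fer* libraries, fer_Aradopside 4 and fer_control 3, were each far above the first 2 replicates of their groups (log2 fold change 5.06 ± 1.096 (SE), adjusted p = 0.011).

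**Figure D2:**
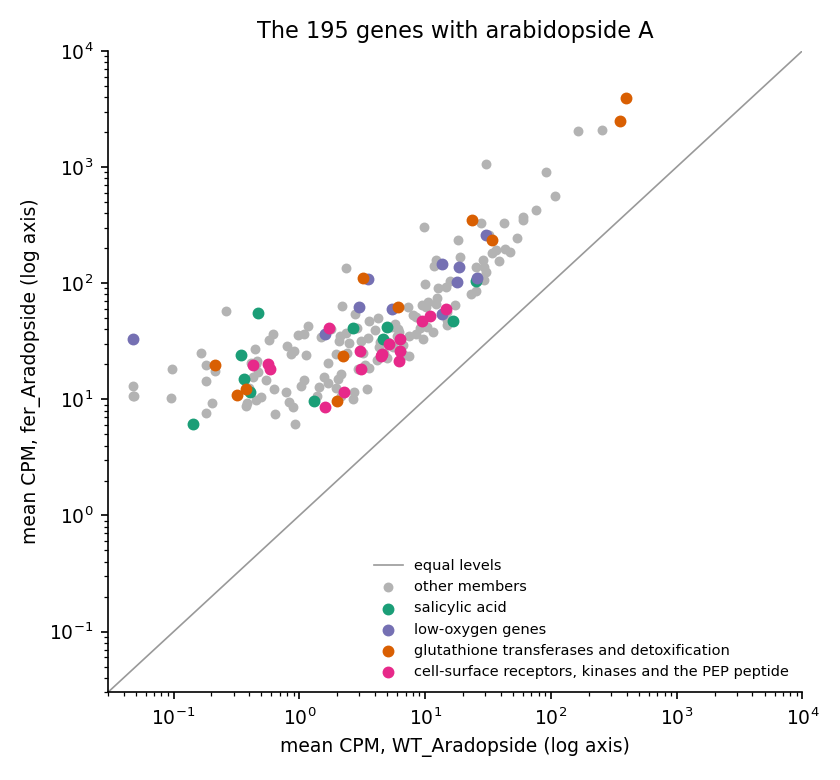
Mean CPM of each of the 195 genes in fer_Aradopside (vertical, log axis) against WT_Aradopside (horizontal, log axis), with 4 role groups in colour. All points lie above the line of equal levels. GSTF2, at the top right, averaged 3937 CPM in fer_Aradopside and 393 CPM in WT_Aradopside.

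What the 195 genes share beyond the rule was first looked for in their promoters, since WRKY transcription factors bind the W-box and act widely in defence. Windows of 300 bases, from 250 before to 50 after the annotated gene start, were read from the TAIR10.1 genome, and 9 motifs were searched on both strands. The W-box (TTGAC followed by C or T) occurred in 118 of the 195 windows (60.5%), against 49.3% of the 357 other genes raised in untreated *fer* by the same rule without the arabidopside bound, 33.5% of genes of at least 10 CPM in fer_control and 31.8% of all 32546 windows. At least 2 W-boxes were in 28.7% of the windows of the 195 genes, against 17.6% of the 357 other raised genes and 7.21% of all windows. CAMTA-type sites (ACGCGT, also with G as its last base or C as its first), named for calmodulin-binding transcription activators, were in 15.4% of the windows of the 195 genes, 11.8% of those of the other raised genes and 4.21% of all windows. The TGA-type motif TGACG was in 28.2% of the windows of the 195 genes, 26.9% of the other raised genes and 23.0% of all windows. The GCC-box GCCGCC was in 2.05% of the windows of the 195 genes, 8.12% of the other raised genes and 2.63% of all windows. The G-box CACGTG was found in 5.13% of the windows of the 195 genes, 8.68% of the other raised genes and 7.11% of all windows. In the same order, ABRE (ACGTG, then T or G, then C) was in 6.15, 5.32 and 7.05% and DRE (GCCGAC) in 2.56, 3.64 and 3.20%. The evening element (AAATATCT) was in 2.05, 7.28 and 5.36% and P1BS (GNATATNC) in 6.15, 9.24 and 6.23%. The G-box letters share bases with ABRE, so that 1 stretch may count for both. These shares describe letters in a window and are not binding sites.

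**Figure D3:**
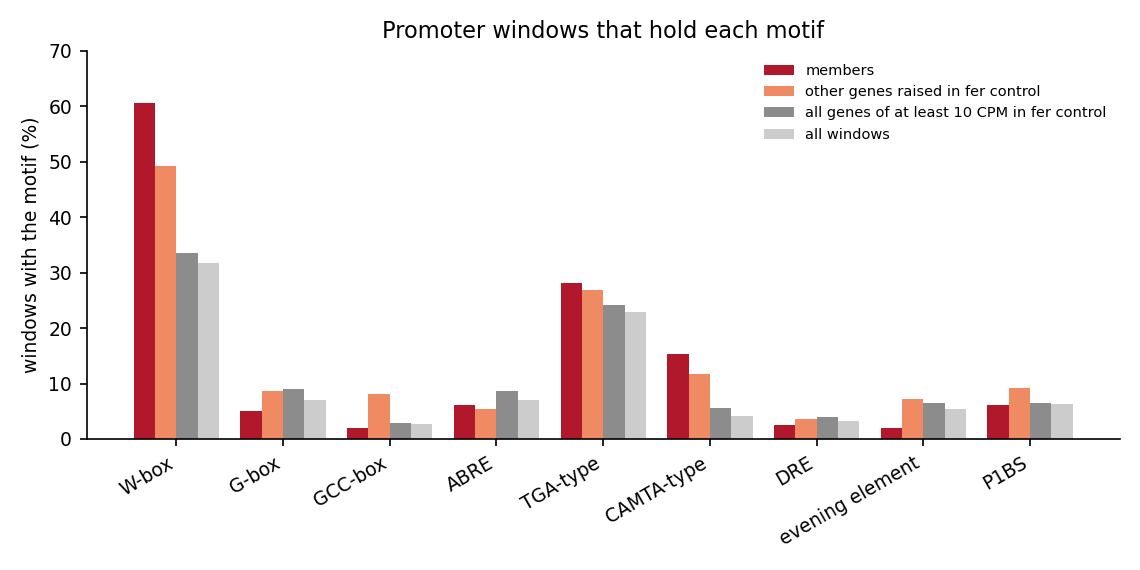
Share of 300-base promoter windows (%) that hold each of 9 motifs at least once, for the 195 genes (members), the 357 other genes raised in fer control, genes of at least 10 CPM in fer control and all windows. The W-box bars stand at 60.5, 49.3, 33.5 and 31.8%, and the CAMTA-type bars at 15.4, 11.8, 5.59 and 4.21%.

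The W-box share was not even across roles. It was 10 of 12 windows among other regulators, 8 of 11 among glutathione transferases and detoxification genes and 10 of 17 among cell-surface receptors, but 3 of 11 among salicylic acid genes and 2 of 11 among low-oxygen genes. Roles were assigned from textbook knowledge after the values were known, to 95 of the 195 genes, so these counts are a description. To show the arrangement of the motif, the 250 bases before the annotated start of 5 genes are printed 5′ to 3′ along the gene, with W-boxes of either strand in capitals. All 5 hold at least 2 W-boxes, which 28.7% of the 195 windows do, so these genes are not typical of the 195. PROPEP3 (plus strand) and CRK11 (minus strand) encode the precursor of a danger peptide and a cysteine-rich receptor-like kinase. CYP81D8 (minus strand) encodes a stress-induced cytochrome P450, and FRK1 (minus strand) a receptor-like kinase used as a reporter of pattern-triggered immunity. WRKY62 (minus strand), a WRKY factor itself, is the salicylic acid gene shown. Of the 11 salicylic acid windows, 2 hold at least 2 W-boxes. The intervals in TAIR10.1 are chr5:25939312-25939561 for PROPEP3, chr4:12143859-12144108 for CRK11, chr4:17571744-17571993 for CYP81D8, chr2:8329945-8330194 for FRK1 and chr5:352096-352345 for WRKY62.
PROPEP3: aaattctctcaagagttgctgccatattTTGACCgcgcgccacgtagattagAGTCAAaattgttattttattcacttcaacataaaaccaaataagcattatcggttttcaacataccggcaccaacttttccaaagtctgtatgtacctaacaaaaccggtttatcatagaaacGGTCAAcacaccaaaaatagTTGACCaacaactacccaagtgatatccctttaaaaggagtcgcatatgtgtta
CRK11: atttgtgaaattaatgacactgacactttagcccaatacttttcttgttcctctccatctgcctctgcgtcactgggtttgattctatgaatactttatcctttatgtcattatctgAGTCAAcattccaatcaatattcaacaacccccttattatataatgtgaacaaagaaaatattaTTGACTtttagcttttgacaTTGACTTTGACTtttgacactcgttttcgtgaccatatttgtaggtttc
CYP81D8: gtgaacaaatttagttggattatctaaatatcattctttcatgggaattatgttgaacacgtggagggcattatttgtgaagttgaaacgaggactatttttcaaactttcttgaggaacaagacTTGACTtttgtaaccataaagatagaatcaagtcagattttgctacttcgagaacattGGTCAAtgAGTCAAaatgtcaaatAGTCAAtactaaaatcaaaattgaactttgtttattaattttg
FRK1: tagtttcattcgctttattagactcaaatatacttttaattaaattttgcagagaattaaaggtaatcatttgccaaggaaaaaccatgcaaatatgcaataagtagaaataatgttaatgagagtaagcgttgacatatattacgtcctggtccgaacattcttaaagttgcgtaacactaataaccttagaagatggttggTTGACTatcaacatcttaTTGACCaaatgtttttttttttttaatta
WRKY62: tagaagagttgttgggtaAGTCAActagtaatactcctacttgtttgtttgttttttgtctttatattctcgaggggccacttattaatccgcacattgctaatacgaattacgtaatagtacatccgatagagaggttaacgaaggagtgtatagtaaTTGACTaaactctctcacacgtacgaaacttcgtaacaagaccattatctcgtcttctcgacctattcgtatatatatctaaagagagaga
PROPEP3, CRK11 and CYP81D8 hold 4 W-boxes each in these stretches. The last 2 of CRK11 stand directly side by side, starting 49 and 43 bases before the start. FRK1 and WRKY62 hold 2 each, those of FRK1 47 and 29 bases and those of WRKY62 232 and 91 bases before it.

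Test results by role are given only for genes counted well enough in all 4 WT_Aradopside libraries. Of the 103 chosen genes so counted, with or without a role, 101 were called higher. A role in which every such gene was higher is therefore no result about that role. The share of 15.8% called higher over all genes so counted is background only. The values of genes not counted well enough are given with no test, because the filter favours genes high in *fer*. Of the 11 salicylic acid genes, 4 were counted well enough and 4 of these were higher in fer_Aradopside (median log2 fold change 2.53). They span the pathway. EDS16 encodes isochorismate synthase, which makes the salicylic acid precursor, and had 34.2, 40.2, 59.9 and 54.2 CPM in fer_Aradopside libraries 1 to 4 and 57.2, 56.3, 50.6 and 121 CPM in fer_control libraries 1 to 4, against 18.5, 15.8, 17.8 and 14.2 CPM in WT_Aradopside and 15.9, 13.5, 13.4 and 18.7 CPM in WT_control (log2 fold change 1.56 ± 0.21 (SE), adjusted p = 7.0e-04). CBP60G and SARD1, transcription factors that switch on EDS16, differed in how even they were. CBP60G had 10.6, 14.9, 45.3 and 94.9 CPM in fer_Aradopside and 21.1, 19.7, 102 and 121 CPM in fer_control, against 1.61 to 4.92 CPM over the 8 WT libraries, and SARD1 had 5.61, 9.37, 9.58 and 14.3 CPM in fer_Aradopside and 17.3, 14.1, 20.01 and 13.7 CPM in fer_control, against 0.501 to 3.03 CPM over the 8 WT libraries. The first 2 fer_Aradopside libraries of CBP60G were far below the last 2, while those of SARD1 lay closer together.

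On the response side, NPR3, a salicylic acid receptor, had 67.1, 78.6, 98.6 and 169 CPM in fer_Aradopside and 70.7, 64.7, 149 and 107 CPM in fer_control, against 20.4 to 26.8 CPM over the 8 WT libraries (log2 fold change 2.11 ± 0.31 (SE), adjusted p = 0.0014). NIMIN-2, which binds the coactivator NPR1, had 26.6, 42.9, 44.9 and 53.9 CPM in fer_Aradopside and 46.7, 55.6, 70.1 and 74.6 CPM in fer_control, against 2.95 to 8.96 CPM over the 8 WT libraries (log2 fold change 3.10 ± 0.35 (SE), adjusted p = 3.9e-04). In both, every fer_Aradopside library lay above every WT_Aradopside library. WRKY62, one of a pair of WRKY factors that act with NPR1, was nearly silent in WT and had 36.2, 56.8, 64.6 and 62.2 CPM in fer_Aradopside libraries 1 to 4 and 61.2, 23.6, 60.2 and 53.7 CPM in fer_control libraries 1 to 4, against 0.779, 0.536, 0.576 and 0 CPM in WT_Aradopside and 0.481, 0.255, 1.002 and 0.567 CPM in WT_control. Its partner WRKY38 had 10.2, 13.6, 12.1 and 24.5 CPM in fer_Aradopside and 24.4, 21.5, 24.4 and 15.2 CPM in fer_control, against 0 to 0.803 CPM over the 8 WT libraries. BGL2, the pathogenesis-related glucanase PR2, had 18.8, 33.7, 24.4 and 19.97 CPM in fer_Aradopside and 19.3, 29.5, 11.4 and 22.1 CPM in fer_control, against 0 to 0.804 CPM over the 8 WT libraries, with the highest value in replicate 2 of both *fer* groups. DMR6 and AT4G10500 encode the oxygenases that hydroxylate salicylic acid and so turn it over. DMR6 had 20.4, 28.2, 35.3 and 49.0 CPM in fer_Aradopside and 39.1, 47.1, 45.9 and 40.9 CPM in fer_control, against 3.07 to 7.24 CPM over the 8 WT libraries (log2 fold change 2.95 ± 0.37 (SE), adjusted p = 5.9e-04), and AT4G10500 had 3.003, 5.31, 6.44 and 9.77 CPM in fer_Aradopside and 7.05, 10.9, 13.9 and 10.7 CPM in fer_control, against 0 to 0.576 CPM over the 8 WT libraries. The salicylic acid genes were among the more even of the 195: the highest fer_Aradopside library was a median of 2.40 times the lowest, where the median over the 195 genes was 4.38.

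**Figure D4:**
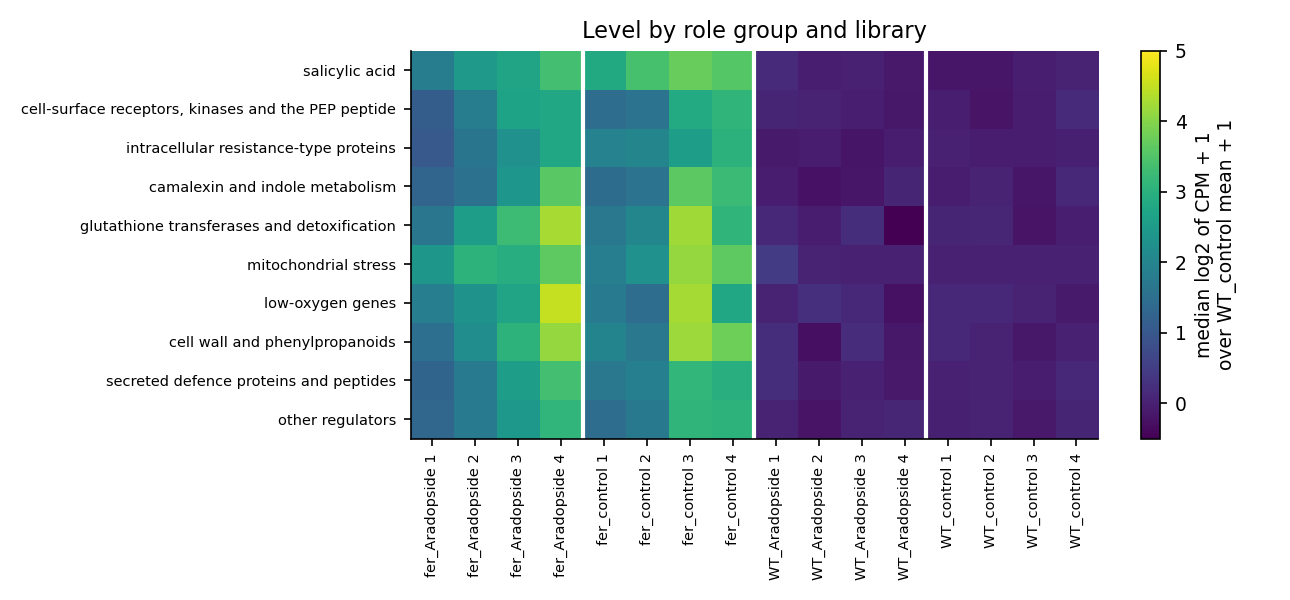
Median, over the genes of each of 10 role groups, of the log2 ratio of CPM plus 1 to the gene's WT_control mean plus 1, in each of the 16 libraries (colour). The fer_Aradopside and fer_control libraries are brighter than every WT library in all 10 rows. Libraries fer_Aradopside 4 and fer_control 3 are the brightest in every row but those of salicylic acid, cell-surface receptors and intracellular resistance-type proteins.

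The 17 genes of the next group encode cell-surface receptors, receptor-like or cytoplasmic kinases or the PEP peptide precursor. Of these, 10 were counted well enough and 10 of these were higher in fer_Aradopside (median log2 fold change 2.42). FRK1, whose promoter is shown above, had 6.61, 10.8, 69.0 and 76.8 CPM in fer_Aradopside libraries 1 to 4 and 13.3, 17.9, 77.5 and 116 CPM in fer_control libraries 1 to 4, against 1.56, 2.41, 2.11 and 0.803 CPM in WT_Aradopside and 1.68, 3.56, 1.17 and 2.27 CPM in WT_control. Its first 2 fer_Aradopside libraries were several times lower than the last 2 but still above WT_Aradopside. CRK11 had 13.0, 18.4, 31.5 and 31.2 CPM in fer_Aradopside and 12.48, 11.6, 36.9 and 48.9 CPM in fer_control, against 2.89 to 6.43 CPM over the 8 WT libraries (log2 fold change 2.48 ± 0.34 (SE), adjusted p = 7.6e-04). LYK5, a chitin receptor kinase, had 8.21, 18.2, 24.3 and 35.0 CPM in fer_Aradopside and 18.7, 10.5, 33.9 and 36.4 CPM in fer_control, against 3.56 to 7.70 CPM over the 8 WT libraries (log2 fold change 1.87 ± 0.41 (SE), adjusted p = 0.0084), and SERK4, a co-receptor kinase related to BAK1, had 13.6, 20.3, 32.4 and 31.9 CPM in fer_Aradopside and 17.1, 13.4, 43.2 and 42.1 CPM in fer_control, against 3.22 to 8.66 CPM over the 8 WT libraries (log2 fold change 2.51 ± 0.32 (SE), adjusted p = 5.7e-04). SERK4 shares 25.4% of the 50-base stretches in its last 400 transcript bases with SERK5, so that some reads cannot be assigned to either gene alone. PROPEP3 did not pass the filter: it had 1.40, 4.14, 22.1 and 51.7 CPM in fer_Aradopside libraries 1 to 4 and 1.21, 1.41, 62.4 and 59.4 CPM in fer_control libraries 1 to 4, against 0.779, 0, 0.384 and 0.535 CPM in WT_Aradopside and 0.481, 0, 0.334 and 0.757 CPM in WT_control. The first replicate of both *fer* groups was close to WT there, and replicates 3 and 4 were far above it. RIPK, a kinase that phosphorylates the immune regulator RIN4, had 23.6, 32.2, 55.3 and 126 CPM in fer_Aradopside and 28.6, 32.4, 101 and 71.6 CPM in fer_control, against 9.78 to 21.4 CPM over the 8 WT libraries (log2 fold change 2.09 ± 0.59 (SE), adjusted p = 0.03), with the call lost in 5 of 16 alternatives. Intracellular resistance-type proteins are encoded by 4 genes, of which 2 were counted well enough and 2 of these were higher in fer_Aradopside (median log2 fold change 1.92). AT4G11170, of the TIR-NB-LRR class, had 5.41, 6.03, 15.7 and 41.4 CPM in fer_Aradopside and 6.04, 9.85, 45.1 and 41.2 CPM in fer_control, against 0 to 0.962 CPM over the 8 WT libraries.

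Camalexin and indole metabolism contributed 5 genes, of which 4 were counted well enough and 4 of these were higher in fer_Aradopside (median log2 fold change 2.75). PAD3, the cytochrome P450 of the last steps of camalexin synthesis, had 44.7, 90.0, 161 and 246 CPM in fer_Aradopside libraries 1 to 4 and 33.0, 35.5, 194 and 116 CPM in fer_control libraries 1 to 4, against 2.92, 1.07, 3.45 and 1.87 CPM in WT_Aradopside and 2.41, 1.53, 1.002 and 2.65 CPM in WT_control. Its mean was 135 ± 87.9 CPM in fer_Aradopside and 2.33 ± 1.06 CPM in WT_Aradopside (SD, n = 4 each). CYP71B6, GGT1, IGMT3 and NIT2 had log2 fold changes of 2.80, 2.70, 2.65 and 2.80. The call of NIT2, a nitrilase, was lost in 6 of 16 alternatives. GGT1 breaks down glutathione conjugates outside the cell, and IGMT3 methylates indole glucosinolates. IGMT3 shares 22.8% of its 50-base stretches with IGMT4.

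A further 11 genes encode glutathione transferases and other detoxification proteins, of which 5 were counted well enough and 5 of these were higher in fer_Aradopside (median log2 fold change 3.42). They were among the least even, with a median of 6.42 for the ratio of the highest to the lowest fer_Aradopside library. GSTF6, which acts in camalexin synthesis, had 779.9, 1364, 3266 and 4543 CPM in fer_Aradopside libraries 1 to 4 and 1106, 579, 4507 and 2169 CPM in fer_control libraries 1 to 4, against 439.6, 216, 518 and 238 CPM in WT_Aradopside and 459.9, 364, 339 and 466 CPM in WT_control (log2 fold change 2.91 ± 0.63 (SE), adjusted p = 0.011). GSTF7, its neighbour on chromosome 1, had 104, 217, 418 and 666 CPM in fer_Aradopside and 137, 43.6, 772 and 245 CPM in fer_control, against 11.5 to 36.1 CPM over the 8 WT libraries (log2 fold change 3.97 ± 0.70 (SE), adjusted p = 0.0048). GSTF6 and GSTF7 share 12.4% of the 50-base stretches in the end of GSTF6, so that their reads can partly be exchanged. CYP81D8 had 19.8, 54.6, 88.5 and 283 CPM in fer_Aradopside and 20.9, 28.5, 268 and 109 CPM in fer_control, against 1.61 to 4.80 CPM over the 8 WT libraries. In all 11 genes the highest fer_Aradopside library was replicate 4 and the highest fer_control library was replicate 3.

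Of the 3 genes of mitochondrial stress, 2 were counted well enough and 2 of these were higher in fer_Aradopside (median log2 fold change 2.48). BCS1, an outer mitochondrial membrane AAA-ATPase, had 61.3, 96.3, 87.5 and 145 CPM in fer_Aradopside and 82.8, 94.6, 205 and 144 CPM in fer_control, against 9.02 to 12.2 CPM over the 8 WT libraries (log2 fold change 3.36 ± 0.29 (SE), adjusted p = 8.9e-05). AOX1D, an alternative oxidase, had 4.41, 12.4, 17.2 and 65.3 CPM in fer_Aradopside libraries 1 to 4 and 2.62, 3.87, 69.9 and 19.997 CPM in fer_control libraries 1 to 4, against 0.389, 0.268, 0 and 0 CPM in WT_Aradopside and 0, 0, 0 and 0 CPM in WT_control. Its WT libraries were at or near 0, with 3 counts in WT_Aradopside in all.

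Cell wall and phenylpropanoid genes numbered 10, of which 5 were counted well enough and 5 of these were higher in fer_Aradopside (median log2 fold change 2.58). EXT4, a hydroxyproline-rich extensin of the wall, had 611, 1198, 2501 and 4077 CPM in fer_Aradopside libraries 1 to 4 and 1130.2, 903, 3716 and 2901 CPM in fer_control libraries 1 to 4, against 329, 229, 275 and 179 CPM in WT_Aradopside and 289, 268, 264 and 249.7 CPM in WT_control (log2 fold change 3.15 ± 0.61 (SE), adjusted p = 0.007). PAL1, the enzyme at the entry to phenylpropanoids, had 195, 233, 473 and 798 CPM in fer_Aradopside and 189.9, 202, 712 and 712 CPM in fer_control, against 54.96 to 80.6 CPM over the 8 WT libraries (log2 fold change 2.58 ± 0.48 (SE), adjusted p = 0.0055). AT5G64120, a class III peroxidase, had 125, 195, 738 and 1172 CPM in fer_Aradopside libraries 1 to 4 and 230.3, 202, 1096 and 1107 CPM in fer_control libraries 1 to 4, against 133, 104, 105 and 92.3 CPM in WT_Aradopside and 154, 115, 117 and 132 CPM in WT_control. Its first fer_Aradopside library overlapped WT_Aradopside, and the call (log2 fold change 2.46 ± 0.71 (SE), adjusted p = 0.033) was lost in 9 of 16 alternatives. PRXCB, another class III peroxidase, had 109, 161, 218 and 554 CPM in fer_Aradopside and 139.7, 109, 597 and 252 CPM in fer_control, against 23.9 to 38.5 CPM over the 8 WT libraries (log2 fold change 3.10 ± 0.56 (SE), adjusted p = 0.0052).

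Of the 11 secreted defence proteins and peptides, 9 were counted well enough and 9 of these were higher in fer_Aradopside (median log2 fold change 2.52). ECS1, a small wall-associated protein, had 778, 816, 619 and 1393 CPM in fer_Aradopside and 681, 1221, 1474 and 844 CPM in fer_control, against 81.1 to 109 CPM over the 8 WT libraries (log2 fold change 3.35 ± 0.28 (SE), adjusted p = 8.7e-05). AT2G38870, annotated as a serine protease inhibitor, had 101, 147, 442 and 787 CPM in fer_Aradopside and 109, 116, 790.2 and 579.9 CPM in fer_control, against 48.5 to 85.5 CPM over the 8 WT libraries (log2 fold change 2.72 ± 0.68 (SE), adjusted p = 0.02), a call lost in 3 of 16 alternatives, and AT4G12490, annotated as a lipid-transfer type protein, had 89.9, 150.5, 409 and 659.6 CPM in fer_Aradopside and 177, 149, 638 and 588 CPM in fer_control, against 32.0 to 60.9 CPM over the 8 WT libraries (log2 fold change 3.03 ± 0.66 (SE), adjusted p = 0.011). The most even gene of this group was AT4G16260, a glycosyl hydrolase, with 221, 259, 246 and 244 CPM in fer_Aradopside libraries 1 to 4 and 216, 264, 239 and 245 CPM in fer_control libraries 1 to 4, against 60.4, 45.3, 51.8 and 57.8 CPM in WT_Aradopside and 50.5, 40.5, 45.6 and 40.3 CPM in WT_control (log2 fold change 2.22 ± 0.13 (SE), adjusted p = 9.7e-06). It averaged 242 ± 15.8 CPM in fer_Aradopside and 53.8 ± 6.72 CPM in WT_Aradopside (SD, n = 4 each). AT1G66100, a thionin, had the opposite order of libraries to most of the 195, with 160.2, 172, 100.2 and 62.2 CPM in fer_Aradopside libraries 1 to 4 and 156, 163, 49.9 and 51.3 CPM in fer_control libraries 1 to 4, against 29.4, 23.0, 40.7 and 28.6 CPM in WT_Aradopside and 20.4, 23.7, 21.6 and 33.9 CPM in WT_control (log2 fold change 2.04 ± 0.29 (SE), adjusted p = 0.0013). Its replicates 1 and 2 were higher than 3 and 4 in both *fer* groups.

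Another 11 genes are known from Arabidopsis as induced under low oxygen, of which 7 were counted well enough and 7 of these were higher in fer_Aradopside (median log2 fold change 2.98). ERF71, a group VII ethylene response factor, had 28.8, 70.4, 83.2 and 248 CPM in fer_Aradopside libraries 1 to 4 and 29.4, 23.9, 216 and 88.6 CPM in fer_control libraries 1 to 4, against 4.48, 5.09, 3.65 and 0.803 CPM in WT_Aradopside and 4.09, 2.80, 3.84 and 3.22 CPM in WT_control. LBD41, a LOB domain factor, had 60.7, 83.8, 112 and 292 CPM in fer_Aradopside and 57.8, 36.2, 237 and 97.0 CPM in fer_control, against 13.9 to 22.4 CPM over the 8 WT libraries (log2 fold change 2.98 ± 0.55 (SE), adjusted p = 0.0057), and AT3G10040, a trihelix factor, had 60.7, 95.7, 109 and 180.0 CPM in fer_Aradopside and 63.6, 75.6, 168 and 118 CPM in fer_control, against 18.9 to 31.4 CPM over the 8 WT libraries (log2 fold change 2.19 ± 0.34 (SE), adjusted p = 0.002). AT4G27450 had 44.9, 67.5, 73.5 and 395 CPM in fer_Aradopside and 54.0, 45.4, 380.4 and 97.9 CPM in fer_control, against 8.13 to 19.0 CPM over the 8 WT libraries (log2 fold change 3.54 ± 0.81 (SE), adjusted p = 0.014). AT5G10040, with 1 count in WT_Aradopside in all, had 3.40, 6.37, 8.26 and 113 CPM in fer_Aradopside libraries 1 to 4 and 2.01, 0.703, 109.5 and 20.6 CPM in fer_control libraries 1 to 4, against 0, 0, 0.192 and 0 CPM in WT_Aradopside and 0.241, 0, 0 and 0 CPM in WT_control. The call of AT1G33055, a well-counted gene of this group, was lost in 5 of 16 alternatives. In all 11 the highest library of each *fer* group was fer_Aradopside 4 or fer_control 3. The 17 other genes of a low-oxygen list written after the values were seen, among them the alcohol dehydrogenase ADH1 and the haemoglobin HB1, summed to 923, 1406, 1614 and 4908 CPM in fer_Aradopside libraries 1 to 4 and 1084, 1030, 4315 and 1687 CPM in fer_control libraries 1 to 4, against 276 to 328 CPM in WT_Aradopside and 280.3 to 419 CPM in WT_control. They thus peaked in the same 2 *fer* libraries as the 11.

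**Figure D5:**
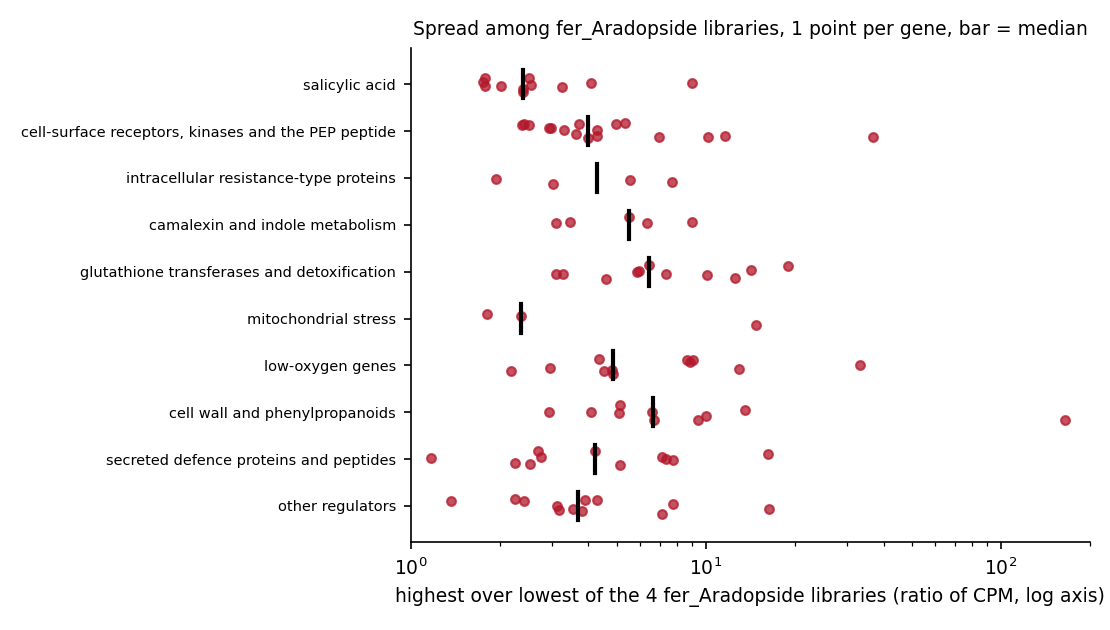
Highest over lowest CPM of the 4 fer_Aradopside libraries (log axis) for each of the 95 genes with a role, 1 point per gene with the median as a bar. The medians are 2.40 for salicylic acid genes, 4.84 for low-oxygen genes and 6.42 for glutathione transferases and detoxification genes.

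Of the 12 other regulators, 7 were counted well enough and 7 of these were higher in fer_Aradopside (median log2 fold change 2.48). PUB22 and PUB23 are U-box ubiquitin ligases that dampen pattern-triggered immunity. PUB22 had 10.01, 17.4, 46.9 and 70.8 CPM in fer_Aradopside and 13.7, 13.7, 56.0 and 52.2 CPM in fer_control, against 6.35 to 9.54 CPM over the 8 WT libraries (log2 fold change 2.18 ± 0.63 (SE), adjusted p = 0.031), a call lost in 8 of 16 alternatives, and PUB23 had 18.2, 33.8, 61.1 and 64.9 CPM in fer_Aradopside and 16.9, 8.44, 71.0 and 65.7 CPM in fer_control, against 3.34 to 6.97 CPM over the 8 WT libraries (log2 fold change 3.03 ± 0.45 (SE), adjusted p = 0.0018). MLO2, a membrane protein on which powdery mildew depends for entry, SYP122, a plasma membrane syntaxin, and the zinc finger proteins SZF1 and CZF1 were also higher. The WRKY8 factor did not pass the filter and had 1.201, 5.84, 15.2 and 19.7 CPM in fer_Aradopside and 3.22, 3.52, 27.0 and 18.5 CPM in fer_control, against 0 to 1.67 CPM over the 8 WT libraries.

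Members that could not be called were few. AT3G29240, annotated as a PPR protein, had 21.4, 23.1, 39.8 and 175 CPM in fer_Aradopside libraries 1 to 4 and 42.3, 48.9, 211 and 60.6 CPM in fer_control libraries 1 to 4, against 14.02, 19.0, 17.3 and 19.0 CPM in WT_Aradopside and 16.8, 23.9, 15.9 and 16.1 CPM in WT_control (log2 fold change 2.01 ± 0.75 (SE), adjusted p = 0.079), where fer_Aradopside 4 and fer_control 3 were far above the other libraries of their groups. TPX2, a thioredoxin-dependent peroxidase, had 6.61, 8.69, 21.6 and 88.6 CPM in fer_Aradopside libraries 1 to 4 and 7.85, 11.3, 104 and 51.0 CPM in fer_control libraries 1 to 4, against 2.34, 8.31, 3.26 and 3.48 CPM in WT_Aradopside and 4.33, 4.33, 5.51 and 3.03 CPM in WT_control (log2 fold change 2.99 ± 0.99 (SE), adjusted p = 0.053). The 10 genes that did not pass the filter were PROPEP3, WRKY8, GSTL1, AT2G04070, CCOAMT, AT1G26410, AT5G51465, AT4G40020, AT1G51920 and AT2G25297. ARD3, an acireductone dioxygenase of the methionine cycle, had the highest log2 ratio with 1 CPM added in the contrast that chose the genes, a value that is part of the rule, and had 18.2, 28.9, 30.1 and 152 CPM in fer_Aradopside libraries 1 to 4 and 28.6, 36.2, 130.4 and 68.9 CPM in fer_control libraries 1 to 4, against 0.389, 0.268, 0.384 and 0 CPM in WT_Aradopside and 0.241, 0.509, 0.668 and 0.378 CPM in WT_control. In it fer_Aradopside 4 and fer_control 3 were again highest. SAG13, a senescence-associated gene and the only one of the 195 on an organ or state marker list, had 3.40, 13.4, 15.03 and 46.6 CPM in fer_Aradopside and 7.45, 9.14, 55.2 and 20.6 CPM in fer_control, against 0 to 0.764 CPM over the 8 WT libraries. Of the other senescing leaf markers, SAG29 was lower in fer_Aradopside, and SAG12 did not pass the filter.

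The *fer* libraries of 1 group differed widely, and mostly in the same order from gene to gene. In fer_Aradopside replicate 1 was lowest for 183 of the 195 genes and replicate 4 was highest for 168, while in fer_control replicate 3 was highest for 138 and replicate 4 for 48. The highest fer_Aradopside library was less than 2 times the lowest in 15 genes and over 5 times it in 87. The green tissue sum given above had its highest fer_Aradopside value in replicate 1 and its lowest in replicate 4, and the lowest of fer_control in replicate 3. Its part in this order was not tested.

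Fer_Aradopside against fer_control is given as a description with no test, because fer_control chose the genes. The log2 ratio of the means had a median of −0.20 and ran from −0.97 to 0.59, with 144 genes lower and 51 higher in fer_Aradopside. It lay below −0.5 in 13.3% of the 195 genes, against 2.72% of the 11071 genes of at least 10 CPM in fer_control, whose median was −0.03. By replicate number the median was −0.33, 0.21, −0.73 and 0.24 in replicates 1 to 4, so that its direction turned between them. The lowest log2 ratios were −0.97 for AT5G41280 and −0.78 for its neighbour AT5G41290, both related to receptor-like kinases, −0.83 for the cupredoxin AT4G39830, −0.80 for AT1G49000, −0.72 for AT2G30670 and −0.71 for AT4G10500. AT5G41280 had 10.8, 8.08, 9.58 and 6.85 CPM in fer_Aradopside and 15.9, 27.4, 13.1 and 16.7 CPM in fer_control. At the other end stood PMZ, an AN1-type zinc finger protein, with 29.6, 66.7, 109 and 159 CPM in fer_Aradopside and 25.0, 20.4, 118 and 77.6 CPM in fer_control (0.59), PAD3 (0.51), AT1G12805 (0.50), AT4G33560 (0.48), AT4G10265 (0.45), FTM1 (0.40) and AT3G19660 (0.40). All 4 same-numbered pairs were lower in fer_Aradopside for 26 genes and higher for 1, AT1G66100. The choice by high fer_control values favours lower pairs, and no share over all genes was computed, so these counts are no result.

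Other genes of the same pathways, on 12 lists of which 21 of the 195 genes are members, were counted in the same fer_Aradopside against WT_Aradopside fit, in which 17.3% of all genes tested were higher and 13.4% lower. Shares near these are no result about a list. The counts below set no minimum in the WT_Aradopside libraries. Genes that passed the filter with the help of their *fer* libraries can be among them, which favours a call of higher. How many did so was not counted, so the counts are a description only. For genes outside the 195, 10 of 11 tested salicylic acid genes were higher, 12 of 15 pattern-triggered immunity genes, 14 of 16 stress WRKY factors, 12 of 12 camalexin and indole genes and 15 of 15 redox and detoxification genes, and none was lower. The jasmonate list had no gene in common with the 195, and 15 of its 20 genes tested were higher and none lower. Cell wall growth genes, with none of the 195, had 3 of 20 higher and 8 lower, and dehydration and cold genes 4 of 19 higher and 3 lower. Of the iron list 2 of 8 tested were higher and 1 lower, and of the phosphate list 6 of 12 were higher. Outside the 195, the senescence list had 9 of 16 genes higher and 1 lower, and the lignin, suberin and cutin list 7 of 17 higher and 1 lower. Among organ markers 4 of 8 endodermis genes and the 1 root cap gene tested were higher, 8 of 11 green tissue genes, 2 of 6 stomatal lineage genes and 1 of 2 seed storage genes were lower, and none of 9 root epidermis genes passed.

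Near the edges of the rule, AT1G76960 and ABCC11 entered with fer_control means of 10.0 and 10.2 CPM, while AT4G17250 and LECRKA4.2 stayed out with 9.95 and 9.91 CPM. CRK13 entered at a log2 ratio of 2.00, and DUR3 and the cinnamate hydroxylase gene C4H stayed out just under it. AT4G02410 entered with a log2 ratio of 0.297 of WT_Aradopside to WT_control and AT3G22060 with −0.297, where the calmodulin-like gene TCH3 stayed out at 0.30021. AT3G29970 stayed out because its highest WT_control library passed its lowest fer_control library by 0.241 CPM. The genes lie on all 5 chromosomes, 53 on chromosome 1, 30 on chromosome 2, 37 on chromosome 3, 30 on chromosome 4 and 45 on chromosome 5. In 11 places 2 of them lie within 3 genes of each other, among them GSTF7 and GSTF6, CRK11 and CRK13, and AT5G41280 and AT5G41290. In 14 genes at least 1 stretch of 50 bases in the last 400 transcript bases also occurs in another gene, over 20% of stretches in 4 of them. Annotated genes on the opposite strand overlap 35 of the 195, and without a stated strand setting their reads cannot be told apart from those of the partner. Among the 35 are GSTF2 (1442 bases of overlap), PUB23 (988), SARD1 (640) and AT5G10040 (435). Genes on the same strand overlap 6 of the 195, among them AT1G33055 (225 bases) and AT1G66100 (30 bases).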

How the data were processed

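Whole 10-day-old seedlings were profiled by QuantSeq, with 4 libraries in each of 4 groups. Reads of 50 bp were mapped by the authors with STAR on the TAIR10 build and handled in SAMtools, and the deposited values are raw counts per gene from htseq-count in its intersection-nonempty mode. Tool versions and the strand option are not given in the sources used here. The authors sequenced each library in 2 runs. Groups came from the labels. The genes and lists were chosen with earlier results of these data known. The genes named were the 12 highest in fer_control, the 12 with the largest ratio to WT_control, members on a list or annotated as transcription factors, receptor kinases, peptides or camalexin or glucosinolate enzymes, the 6 highest and 6 lowest in fer_Aradopside over fer_control, members not called, and the 3 genes nearest each side of a threshold. Other named genes were picked after their values were seen, as examples of a role. CPM was computed from library totals.

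Differences were tested with edgeR 4.0.16 (TMM, filterByExpr, robust quasi-likelihood F test, Benjamini-Hochberg adjustment over all genes tested, threshold 0.05) on R 4.3.3. The filter asked for about 1.933 CPM in at least 4 libraries. The alternatives were limma 3.58.1 (voom), DESeq2 1.42.0, other scalings and filters, and leaving out each library. The fit was checked on simulated counts. Deviations of same-numbered fer_Aradopside and fer_control libraries from their group means correlated across 14258 genes (r of 0.70, 0.46, 0.25 and 0.47). Those of same-numbered *fer* and WT libraries did not (r of −0.17 to 0.02). Between fer_Aradopside and fer_control libraries of different numbers, r ran from −0.72 (1 with 3) to 0.78 (4 with 3). The numbers alone thus do not mark which *fer* libraries were alike. Gene names, positions and promoter windows came from RefSeq's TAIR10.1. No libraries were duplicates of each other.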

Additional observations from a re-analysis of the deposited data

Results flagged for a closer look

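A check for a library far from the other 3 of its group was made on 272 sets of 4 values, and 20 sets (7.35%) were singled out by Dixon's test of the gap to the nearest library against the range. Chance gives about 1 in 20 for independent, normally distributed values. CPM values of related genes need not be so, and the 7.35% is not read against that rate. The fer_Aradopside replicate 2 total, 26358335 counts, stood above the other 3. In fer_Aradopside the highest library, replicate 4 in each case, stood apart for ARD3 (152 CPM), AT1G13520 (134 CPM), AT3G28510 (56.7 CPM), AT4G27450 (395 CPM), AT5G10040 (113 CPM) and AT3G29240 (175 CPM). In fer_control it did so for AT4G27450 (380.4 CPM) and AT3G29240 (211 CPM), both in replicate 3, and for EDS16 (121 CPM) in replicate 4. Among WT_Aradopside libraries, single high values were 2.68 CPM for SARD1, 0.803 CPM for WRKY38, 0.576 CPM for AT4G10500, 12.1 CPM for BCS1 and 0.192 CPM for AT5G10040. Among WT_control libraries they were 0.378 CPM for AT3G28510, 0.509 CPM for AT4G10500, 0.241 CPM for AT5G10040 and 23.9 CPM for AT3G29240, and a single low value was 0 CPM for WRKY38. In the WT sets of AT3G28510, AT4G10500 and AT5G10040 named here, the other libraries were at 0 CPM. The causes were not tested.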

How the results depend on the processing

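The 183 genes of the 195 called higher in fer_Aradopside became 97 of the 98 that had at least 10 counts in every library, 146 with limma-voom, 166 without a filter on low counts, 192 with DESeq2 and 180 with the replicate block, and leaving out 1 library gave 164 to 194. The log2 fold change stayed positive for all 195 in every alternative that gave a fit, and 143 of the 183 calls were kept in each of them. Apart from that of the 98, these counts take in genes that reached the filter's minimum with the help of their *fer* libraries. They are thus a description, and no such count was made for the 103 well-counted genes alone. Over all genes, the 5292 calls became 2494 when the change also had to reach 1 log2 unit either way, 4557 with the replicate block, and 3739 to 6247 without 1 library. The 4620 calls of fer_control against WT_control became 4122 with the replicate block and 3157 to 5466 without 1 library, and upper quartile scaling moved the median of all genes in that contrast to −0.13. The number of genes meeting the rule was 294 with an arabidopside bound of 0.5, 311 with a log2 difference of at least 1.5, and 128 to 252 without 1 library, 128 being the number without fer_control replicate 3. The median log2 ratio of fer_Aradopside to fer_control, −0.17 with the replicate block, ran from −0.66 without fer_Aradopside replicate 4 to 0.21 without fer_control replicate 3. For the 53 named genes fitted, 770 of 826 alternative values lay on the same side of the threshold as in the main fit, called or not. Of the others, 45 lost the call, 11 gained it and 0 reversed in direction. Low WT counts limit fold changes, and all intervals rest on 4 libraries per group.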
